A study of Mus musculus with 4 samples.

Results

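The CpG islands of Sox2 and Bmp4 were followed probe by probe on 4 arrays that measured DNA methylation in the brains of newborn mice. All probes of the array within chr3:34540000-34560000 (Sox2) and chr14:47000000-47015000 (Bmp4) on the mm9 genome build were taken, which gave 50 of the 88737 probes on the array. They formed 5 of its 14580 regions, a region being a run of probes with gaps of at most 1000 bp. Sox2 was chosen by its place in the study, and Bmp4 was selected on its fall between exposed and control arrays, so the comparisons below describe the values that chose the genes and carry no test.

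The arrays held pooled DNA of whole brains of C57BL/6J mice taken on postnatal day 1. Their dams had received an intratracheal dose while pregnant, either vehicle (Sham) or 100 ug of titanium dioxide nanoparticles a mouse (TiO2-H), on gestational day 14 by the sample names and on gestational day 10.5 by the treatment protocol. Each of the 4 groups, males and females of Sham and of TiO2-H, was 1 pool on 1 array, with 2 offspring from each of 5 dams (Sham) or 6 dams (TiO2-H). No value below has a replicate, and the number of arrays limits the precision.

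Sox2 encodes an HMG-box transcription factor of neural stem and progenitor cells, which keeps them undifferentiated, and its single exon lies inside a long noncoding transcript, Sox2ot. Bmp4 encodes a secreted ligand of the bone morphogenetic protein (BMP) family, which binds serine/threonine kinase receptors and signals through SMAD proteins. In the developing brain, BMP signals pattern dorsal regions and favour astroglial over neuronal fates. CpG islands at such developmental genes are mostly unmethylated, and methylated DNA immunoprecipitation (MeDIP) enriches fragments that carry 5-methylcytosine, which in the mammalian genome sits mostly at CpG dinucleotides.

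The sequences next to both gene starts are shown for their unequal supply of CpGs. They are the 250 bases before the RefSeq start on GRCm38.p6, written 5′ to 3′ on the strand of the gene with each CpG in capitals, and were not placed against the mm9 probes.
Sox2: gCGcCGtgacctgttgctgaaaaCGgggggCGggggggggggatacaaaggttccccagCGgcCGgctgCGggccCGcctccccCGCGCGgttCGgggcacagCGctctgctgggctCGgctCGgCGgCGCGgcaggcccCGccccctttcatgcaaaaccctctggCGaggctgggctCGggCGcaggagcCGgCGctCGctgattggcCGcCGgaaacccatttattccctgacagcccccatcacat
Bmp4: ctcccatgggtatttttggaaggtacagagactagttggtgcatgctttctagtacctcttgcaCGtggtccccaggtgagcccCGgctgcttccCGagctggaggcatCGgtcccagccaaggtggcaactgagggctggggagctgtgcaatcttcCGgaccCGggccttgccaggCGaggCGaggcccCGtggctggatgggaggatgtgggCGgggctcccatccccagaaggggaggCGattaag
The Sox2 window, chr3:34649745-34649994 on the + strand, held 27 CpGs at 72% G and C, more CpGs than 91.4% of the 32851 promoter windows of that length. The Bmp4 window, chr14:46390670-46390919 on the - strand, held 11 CpGs at 63.2% G and C, more than 64.4% of them. The ratio of observed to expected CpGs was 0.83 for Sox2 and 0.45 for Bmp4.

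On each array the MeDIP DNA carried Cy5 and the input DNA carried Cy3, and the level of a probe is log2(Cy5/Cy3) of the processed signals, less the autosomal median of that array. Cy5 was well above background at 51.2% of all probes for Sham males and 59.4% for Sham females, but at 25.3% and 33.0% on the male-labelled and female-labelled TiO2-H arrays. The Sham male array and the male-labelled TiO2-H array shared a slide, as did the other two. Slide and labelled sex therefore cannot be told apart, nor can exposure and position on a slide. The median input signal of the X chromosome over that of the autosomes, in log2, was -0.75 for Sham males, 0.03 for Sham females, 0.03 on the male-labelled TiO2-H array and -0.74 on the female-labelled TiO2-H array. The X-linked signal thus went against the sex labels of both TiO2-H arrays, and values with these labels crossed are given where they bear on a result. In whole brain, fewer cells with a methylated island and less methylation per cell cannot be told apart.

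The Bmp4 island held 16 probes over chr14:47006999-47008914, and the gene is read toward lower positions. A pair of neighbouring probes in it was high on both Sham arrays and low on both TiO2-H arrays. At the probe chr14:47007792-47007836 the level was 3.68 for Sham males, 1.08 for Sham females, -1.88 on the male-labelled TiO2-H array and -2.89 on the female-labelled TiO2-H array. At the probe before it, chr14:47007694-47007740, the levels in the same order were 3.0, 1.41, -1.19 and -1.60. At both probes the lowest Sham level lay above the highest TiO2-H level, in the contrast on which Bmp4 was selected. The share of all probes with this order of the arrays was not counted. MeDIP signal was well above background on both Sham arrays and on neither TiO2-H array.

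The difference lay in the MeDIP channel. At 47007792 the background-subtracted Cy5 signal was 472.8 intensity units for Sham males, 87.9 for Sham females, 3.88 on the male-labelled TiO2-H array and 2.33 on the female-labelled TiO2-H array. Its input signal in the same order was 478.0, 563.4, 496.6 and 545.4 units. The Sham male signal exceeded that of 98.9% of all probes of its array, and the Sham female signal exceeded that of 97.0%. On the TiO2-H arrays it exceeded 68.2% and 47.1%, which placed the probe among signals not told from background. At 47007694 the Cy5 signal was 67.6, 38.4, 1.30 and 1.90 units and the input signal was 110.5, 199.5, 109.2 and 193.3 units in that order. The input of this probe differed between the slides more than between exposures.

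**Figure D1:**
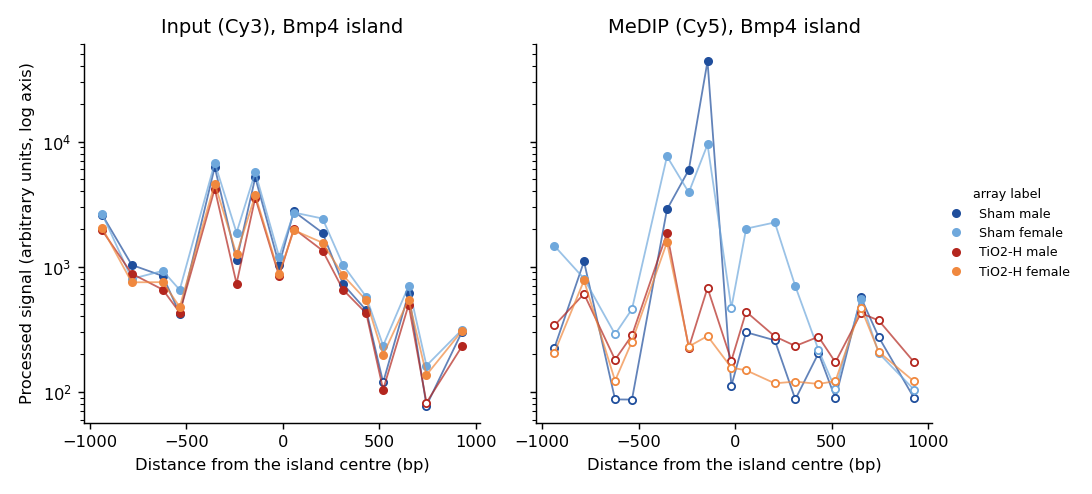
Processed input (Cy3, left) and MeDIP (Cy5, right) signals of the 16 Bmp4 island probes in arbitrary units on a log axis, against distance from the island centre in bp, with 1 line per array and open circles where the signal was not well above background. The input lines of the 4 arrays run close together at most probes, with a wider spread at 47007694, while the MeDIP lines of the Sham arrays stand above those of the TiO2-H arrays at the pair of probes left of the centre.

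In the comparison of TiO2-H with Sham within a labelled sex, 47007792 had a log2 fold of -5.56 in males and -3.97 in females, and 47007694 had -4.19 and -3.01. Because Cy5 was dim on the TiO2-H arrays these folds are estimates without a lower end. With the dim signal raised to the lowest Cy5 signal still well above background, the level of 47007792 was at least 38.1-fold lower in males and at least 7.63-fold lower in females. For 47007694 it was at least 4.90-fold lower in males and at least 3.23-fold lower in females. With crossed TiO2-H labels, the log2 folds of 47007792 were -6.57 for males and -2.96 for females, and those of 47007694 were -4.60 and -2.60. With background correction by normexp they were -2.78 and -2.30 for 47007792 and -0.75 and -0.90 for 47007694, still falls in both comparisons. All of these were smaller in size than the bounds above. Such bounds therefore hold for the processed signals alone, and not under another background correction. The Sham arrays also differed from each other here, with Sham female over Sham male at -2.60 for 47007792 and -1.59 for 47007694.

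Among the 28139 autosomal probes measured in both comparisons, the mean log2 fold of 47007792 was rank 2 from the lowest, and that of 47007694 was rank 20. A probe counted as measured when Cy3 was flagged as well above background on both arrays and Cy5 on at least 1. The p-value of the log ratio from the signal extraction software also had to be under 0.05 on at least 1. Cy5 well above background on both Sham arrays and on neither TiO2-H array was common, at 11126 of 80488 autosomal probes with input well above background on all 4 arrays. A level above 1 on both Sham arrays together with one below -1 on both TiO2-H arrays was found at 9 of those 11126, and 2 of the 9 were these neighbours in the Bmp4 island. No other of the 9 lay next to another in its region. In the opposite direction, 1 probe had Cy5 well above background on both TiO2-H arrays and neither Sham array, and 0 passed the same limits on the level. These ranks and counts use the contrast on which Bmp4 was selected. The pair passed the limits narrowly, with 1.08 on the Sham female array at 47007792 and -1.19 on the male-labelled TiO2-H array at 47007694. Its place among the 9 thus follows from the selection and the limits, and is no support for the pair.

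The high signal ended abruptly on its upper side. The next probe, chr14:47007908-47007967, began 71 bp after the end of 47007792 and had levels of -2.62, -1.02, -1.74 and -1.64 in the order above, with Cy5 not well above background on any array. On the Sham male array the step between these neighbours was -6.30, larger than 99.3% of the 58977 steps between probes at most 200 bp apart. On the Sham female array it was -2.10, larger than 90.4%. The sonicated fragments were mainly 200 to 800 bp long by the labels, more than the distance between these probes. On the lower side, 47007582, which the printed annotation places inside the gene, was well above background on all 4 arrays. Its levels were -0.53, 0.51, -0.66 and -0.71, and its log2 fold was -0.13 in males and -1.22 in females.

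**Figure D2:**
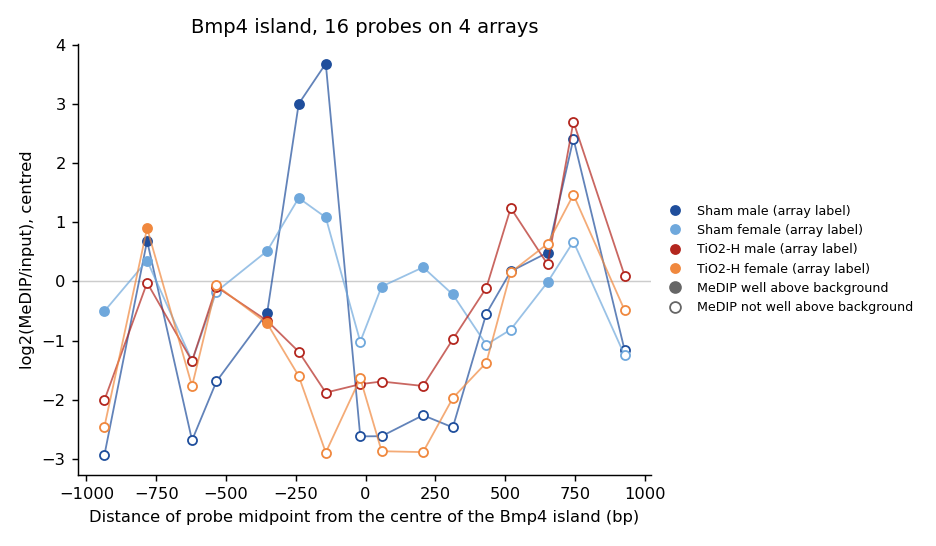
Centred log2(MeDIP/input) of the 16 Bmp4 island probes against distance from the island centre in bp, with 1 line per array, filled circles where MeDIP was well above background and open circles where it was not. The 2 probes between 250 and 100 bp left of the centre reach 3.0 and 3.68 on the Sham male array and lie under -1 on both TiO2-H arrays.

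Most other Bmp4 island probes were low or dim. Probes 47006999, 47007992, 47008138 and 47008247 were well above background on the Sham female array alone. Their levels there were -0.50, -0.09, 0.24 and -0.22, and on the other 3 arrays they lay between -2.94 and -0.98. In the female comparison these 4 fell with log2 folds of -1.95, -2.78, -3.12 and -1.75. On the bound, the fall of 47007992 was at least 1.78-fold and that of 47008138 at least 1.77-fold, that of 47006999 at least 1.39-fold, and 47008247 kept no direction. Crossed, the female log2 folds were -1.50, -1.60, -2.00 and -0.76. The Sham male levels of the 4 lay as low as those of the TiO2-H arrays, so here the Sham female array stood apart rather than the Sham pair. Levels on the Sham female array had the smallest spread over the array as a whole, with a median absolute deviation of 0.60. It was 1.08 for Sham males and 0.91 and 1.04 on the male-labelled and female-labelled TiO2-H arrays. Levels nearer 0 on the Sham female array are thus not particular to these probes.

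Probe 47007152 near the lower end had levels of 0.68, 0.35, -0.02 and 0.90, and was dim only on the male-labelled TiO2-H array. Probe 47008673 near the upper end read 2.41, 0.67, 2.70 and 1.46, but its input was at most 19.8 units and its Cy5 at most 3.06 units, so its level rests on dim signal. Cy5 was not well above background on any array at 7 of the 16 probes. It was well above background at 5 probes for Sham males, 9 for Sham females, 1 on the male-labelled TiO2-H array and 2 on the female-labelled TiO2-H array.

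Probes with a fold of at least 1.5 were counted as risen, and those with a fold of at most 0.67 as fallen. In the Bmp4 window 5 of 24 probes were measured in males, and 4 of them fell and 0 rose. Over all measured autosomal probes 56% fell and 3.14% rose in males. In females 11 probes of the window were measured, of which 10 fell and 1 rose, where 36.3% of autosomal probes fell and 28.8% rose. Without centring, 51.0% of autosomal probes fell and 10.2% rose in females. Of the 10 falls in females, 9 had Cy5 not well above background on the female-labelled TiO2-H array, and 4 of these 9 kept a fold of that size on the bound. The median log2 fold of the measured island probes was -4.19 in males over 3 probes and -2.78 in females over 7. Over all measured autosomal probes it was -0.68 and -0.10. Cy5 was well above background on both arrays at 1 of the 3 and 1 of the 7. The others passed on the Sham array alone, which favours falls. Over the 14 island probes with input well above background on all arrays, the median level was -1.43 for Sham males and -1.08 on the male-labelled TiO2-H array. For Sham females and the female-labelled TiO2-H array it was -0.13 and -1.62. With Cy5 required above background on both arrays, 47007582 alone was left in the island, at -0.13 and -1.22. By normexp the island medians were -0.75 and -1.22. Over both comparisons, 2 of the 4 probes of the window measured in both fell in both, against 10.6% of autosomal probes, and 0 rose in both, against 0.864%.

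The Bmp4 window also held 2 shorter runs at lower positions. The run at chr14:47005370-47005772, with 5 probes, was low on 3 arrays, with medians of -1.69 for Sham males, -0.61 on the male-labelled TiO2-H array and -1.15 on the female-labelled TiO2-H array. On the Sham female array its median was -0.11, and 3 of its probes were well above background there and nowhere else. These 3 fell in the female comparison by 1.51, 1.04 and 1.04 on the log2 scale, and none kept a fold of 1.5 on the bound. The run at chr14:47000105-47000510 was high instead. Its probe 47000105 was well above background on all 4 arrays at 3.17, 2.19, 2.06 and 3.54, higher on both arrays with the lower X-linked input than on the other two. It fell in males (log2 fold -1.11) and rose in females (1.35), though no Bmp4 probe rose in females with a common spread, after quantile normalization or by normexp, and with the labels crossed the folds were 0.37 and -0.13. Its neighbour 47000269 was also above background throughout, at 1.27, 0.46, 0.51 and 0.38.

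The Sox2 island held 21 probes over chr3:34547722-34550298, and the gene is read toward higher positions. Unlike the Bmp4 island, it carried probes that were high and well above background on all 4 arrays. They lay next to probes that were low on at least 3 of them. The highest stretch left of the island centre held 34548677 and 34548813. At 34548677 the level was 3.07 for Sham males, 1.34 for Sham females, 1.48 on the male-labelled TiO2-H array and 2.02 on the female-labelled TiO2-H array. At 34548813 it was 2.50, 1.85, 1.80 and 2.40 in that order. A separate high probe, 34549338, read 2.93, 1.74, 2.54 and 2.80. All 3 were well above background on every array, and their levels exceeded those of at least 85.9% of the autosomal probes of each array.

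The low probes lay between and beside them. Probe 34549058 read -3.26, -1.08, -1.99 and -2.57, and Cy5 was well above background on the Sham female array alone. Probe 34548418, which the printed annotation places in the promoter, read -2.14, 0.00, -1.96 and -2.37, and 34548485 beside it read -1.96, -0.20, -1.13 and -2.16. Probe 34549575, annotated inside the gene, read -1.15, -0.22, -1.07 and -1.19. At each of these 4 probes the Sham female array, which had the smallest spread of levels as a whole, was the highest, as at the low probes of Bmp4. Between 34549137 and 34549338, 156 bp apart, the level stepped up by 3.74, 2.32, 4.19 and 3.78, larger than 91.7% to 98.8% of the steps between near neighbours on the 4 arrays. That step ran the same way on every array, whereas the step beside the Bmp4 pair was found on the Sham arrays.

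**Figure D3:**
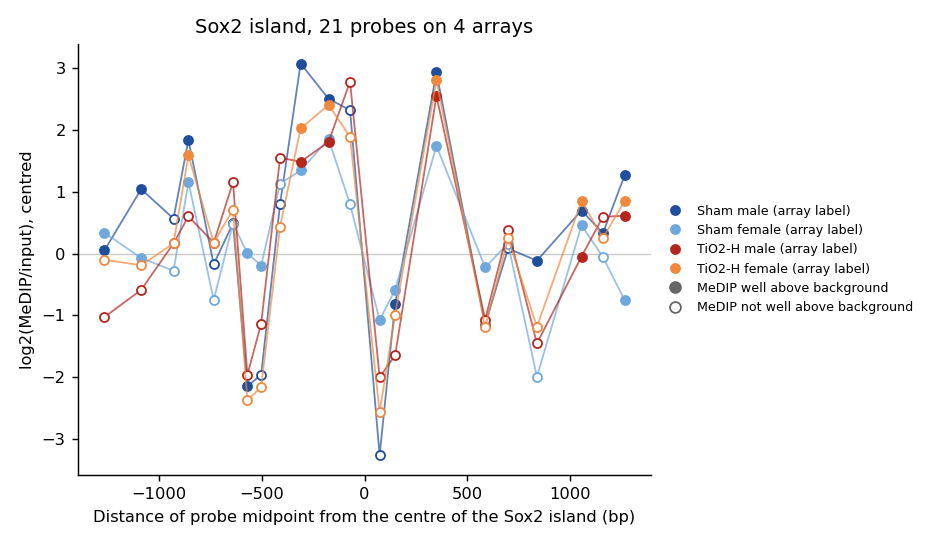
Centred log2(MeDIP/input) of the 21 Sox2 island probes against distance from the island centre in bp, with 1 line per array, filled circles where MeDIP was well above background and open circles where it was not. The 4 lines share the peak at 34549338, between 1.74 and 2.93, and the Sham female line spans the smallest range and does not follow the others down at 34548418, where it lies at 0.00.

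Cy5 was well above background at 13 of the 21 Sox2 island probes on each Sham array, at 5 on the male-labelled TiO2-H array and at 6 on the female-labelled TiO2-H array, and at 5 probes on all 4. The shares, 61.9%, 61.9%, 23.8% and 28.6%, were near those of the whole array given above. The Bmp4 island had 31.3%, 56.3%, 6.25% and 12.5%. The median level over the 20 Sox2 probes with input well above background on all arrays was 0.41, -0.03, 0.17 and 0.21, between the 52.1 and 71.7 percentile of 12659 autosomal regions. Over 14 such probes of the Bmp4 island it was -1.43, -0.13, -1.08 and -1.62, at the 5.47, 43.3, 8.18 and 2.12 percentile. The median of the Bmp4 island was thus low on the Sham male array also, where its pair of high probes stood out from its own island. Probe 34548910 had input not well above background on any array and was not measured in any comparison.

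In the male comparison 10 of the 26 probes of the Sox2 window were measured, of which 7 fell and 0 rose, beside the 56% and 3.14% of all autosomal probes. The measured median was -0.77 on the log2 scale, against -0.68 for all. The falls were at 34548677 (-1.58), 34549827 (-1.34), 34548131 (-1.23), 34547722 (-1.08), 34549137 (-0.83), 34548813 (-0.70) and 34550254 (-0.65). In 4 of these 7 Cy5 was dim on the male-labelled TiO2-H array, and 34548131 alone of the 4 kept a fold of 1.5 on the bound, at least 1.85-fold lower. With background correction by normexp, 1 of the 10 fell and 0 rose, beside 19.0% and 0.0431% of all autosomal probes.

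In the female comparison 12 probes were measured, of which 4 fell and 3 rose, beside 36.3% and 28.8% of all autosomal probes. The 4 falls were the low probes named above, 34548418 (-2.37), 34548485 (-1.96), 34549058 (-1.49) and 34549575 (-0.97). All of them were dim on the female-labelled TiO2-H array, and 34548418 alone kept a fold of 1.5 on the bound, at least 2.34-fold lower. The 3 rises were at 34550254 (1.60), 34549338 (1.06) and 34548677 (0.68), where Cy5 was well above background on both arrays. On the Sham female array 34550254 had a level of -0.75, so it was not among the high probes there, and the high probe 34548813, with a log2 fold of 0.55, did not pass 1.5-fold. The rises depended on the scaling, with 1 rise and 7 falls among the same 12 probes without centring, 1 and 6 with a common spread, 1 and 4 after quantile normalization and 0 and 5 by normexp. Over all autosomal probes 10.2% rose and 51.0% fell without centring, and 5.25% and 43.4% with a common spread. After quantile normalization these shares were 7.34% and 35.0%, and by normexp 4.09% and 43.1%. The Sox2 median was -0.26, and with Cy5 required above background on both arrays it was 0.68 over 5 probes. Over all measured autosomal probes the female median was -0.10, and 0.64 with that filter, so the shift was not particular to Sox2.

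**Figure D4:**
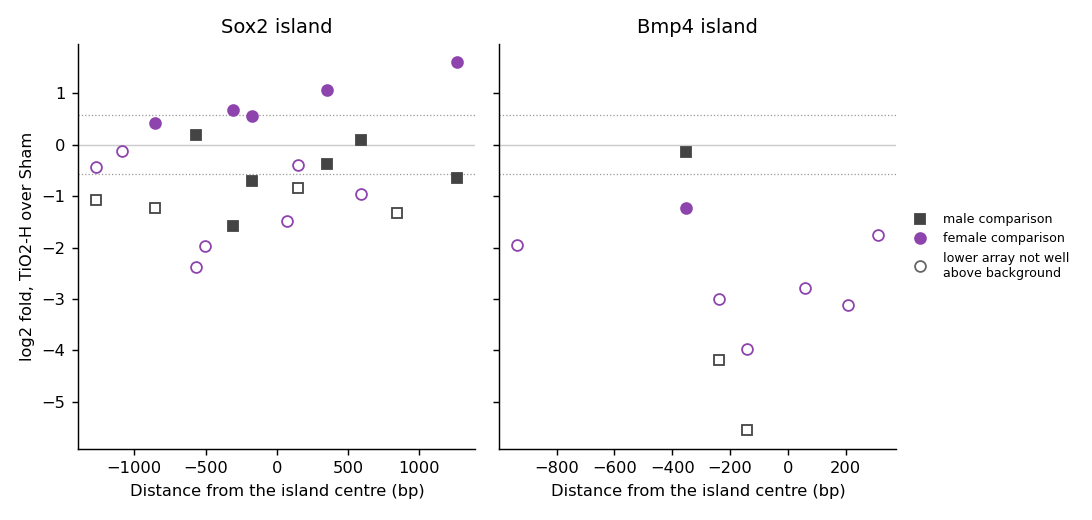
Log2 fold of TiO2-H over Sham at the measured probes of both islands against distance from the island centre in bp, with squares for the male and circles for the female comparison, open where MeDIP was not well above background on the lower array, and dotted lines at folds of 1.5 and 0.67. In the Bmp4 island all 10 values lie under 0, and in the Sox2 island the values lie on either side of 0.

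Of the 9 Sox2 probes measured in both comparisons, 0 fell in both and 0 rose in both, where 10.6% and 0.864% of autosomal probes did. Without centring 2 of the 9 fell in both, and with a common spread 1 did. Opposite directions were found at 2 of the 9, against 27.8% of autosomal probes, and these were 34548677 and 34550254. With the labels crossed, 34548677 had log2 folds of -1.05 for males and 0.14 for females, and 34550254 had -0.42 and 1.37. At 34548418 the crossed folds were -0.22 and -1.96, at 34549058 0.69 and -0.92, and at 34549338 -0.13 and 0.81. The run of 5 probes at chr3:34540865-34541337 was not measured in either comparison, since Cy5 was not well above background at any of its probes on any array.

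The Sham arrays differed by about as much from each other at Sox2. Between the Sham arrays 12 probes of the window were measured, and 4 rose and 6 fell in Sham female over Sham male, with log2 folds from -2.02 to 2.18, where 32% and 33% of autosomal probes rose and fell. In the Bmp4 window 8 of 12 rose and 4 fell between the Sham arrays, from -2.60 to 2.53. Between the female-labelled and male-labelled TiO2-H arrays, 4 Sox2 probes were measured, with log2 folds from 0.25 to 0.98, of which 2 rose, and 2 Bmp4 probes, of which 1 rose, beside 63.7% rises and 1.02% falls over all autosomal probes. The largest fold in the Sox2 island in either exposure comparison, at -2.37, was close in size to the 2.18 between the Sham arrays. The folds of 47007792, at -5.56 and -3.97, were larger in size than any between the Sham arrays in either window, but Bmp4 was selected on this contrast. The largest fold between the Sham arrays, -2.60, was at this same probe. By normexp the exposure folds of 47007792 were -2.78 and -2.30.

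Over the 20 Sox2 island probes with input well above background on all arrays, the levels of the arrays followed each other. Pearson's r was 0.96 between the Sham male array and the female-labelled TiO2-H array, 0.91 between both TiO2-H arrays, 0.85 between the arrays labelled male, 0.74 between the arrays labelled female and 0.67 between both Sham arrays. Over 14 Bmp4 island probes r was 0.72 between the Sham arrays and 0.89 between the TiO2-H arrays, but 0.18 for the Sham male array with either TiO2-H array. The pair 47007694 and 47007792 was then left out because it fell in both comparisons. A higher r between Sham and TiO2-H arrays follows in part from that choice. Over the remaining 12 probes the Sham male array had r of 0.84 with the male-labelled TiO2-H array and 0.85 with the female-labelled one. With the Sham female array it had r of 0.36. The Sham female array then had r of 0.06 with the male-labelled and 0.19 with the female-labelled TiO2-H array. Neighbouring probes share fragments and each probe shares its base composition between arrays, so these values are descriptions.

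The regions whose 4 medians were nearest to those of the Sox2 island, among 3155 regions with a symbol, were at Bok, which encodes a BCL-2 family protein, Scarf2, which encodes a scavenger receptor, and Ntan1, which encodes an amidase acting on N-terminal asparagine. The Euclidean distances over the 4 arrays were 0.19, 0.20 and 0.21 on the log2 scale. Nearest to the Bmp4 island were Lhx4, a LIM homeobox gene, Tmem127, which encodes a transmembrane protein, and Wbscr27, at 0.17, 0.19 and 0.19. The medians of the Lhx4 region, chr1:157583958-157585226, were -1.52, -0.26, -1.14 and -1.60.

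Symbols for other genes of the SOX family and the BMP pathway came from an annotation list that was held in part and ordered by the male comparison, so these counts are not independent of it. Of 18 other SOX genes, 11 had a region, with 187 probes. In males 31 of 73 measured probes fell (42.5%) and 7 rose, with a median log2 fold of -0.41, and in females 36 of 91 fell (39.6%) and 27 rose, with a median of -0.26. Of 61 measured in both, 3 fell in both. Over all autosomal probes 56% fell in males, 36.3% in females and 10.6% in both, and 3.14% rose in males and 28.8% in females. One of these genes, Sox3, is X-linked, and it held 12 of the 73 probes measured in males and 6 of the 7 rises. The male rises of this list therefore came mostly from a gene outside the autosomal probes set beside it. No SOX gene had a median past 1.5-fold in the same direction in both comparisons.

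Of 37 genes of the BMP pathway (ligands, receptors, inhibitors, SMAD mediators and targets), 14 had a region, with 146 probes. In males 21 of 55 measured probes fell (38.2%) and 2 rose, with a median of -0.38, and in females 31 of 72 fell (43.1%) and 15 rose, with a median of -0.38. Among 46 measured in both, 6 fell in both. The shares of fallen probes over all autosomal probes were 56%, 36.3% and 10.6% for males, females and both. Those of risen probes were 3.14% in males and 28.8% in females. Acvr2b, a type II receptor of the family, was the one gene with a region whose median passed 1.5-fold downward in both comparisons, at -0.73 over 3 probes in males and -1.85 over 5 in females. The median over all measured autosomal probes was -0.68 in males, itself past 1.5-fold and near that of Acvr2b, and -0.10 in females. A further region of Acvr2b had medians of -1.74 over 2 probes in males and -0.22 over 3 in females, where 0 of the 3 fell. Among the ligands, the region of Bmp6 had medians of -0.55 in males and -1.10 in females with 6 of 6 measured probes down in females, and that of Bmp2 had -0.72 and 0.30. Among the inhibitors, Chrd, which encodes a secreted protein that binds BMP ligands, had -0.23 and -0.07. Bmp6, Bmp2 and Chrd were picked after their values were seen.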

How the data were processed

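Pooled brain DNA of 4 groups was hybridised to 2-colour mouse CpG island arrays on 2 slides, with MeDIP DNA in Cy5 and input DNA in Cy3 per the labels and no dye swap. Per the file headers, the authors extracted the signals with Feature Extraction 10.7.3.1. The deposited processed intensity values were corrected for background and spatial trend, each dye then being multiplied by a linear factor, and the deposited median and background-subtracted intensity values were used for checks. The deposited log10 ratio (Cy5 over Cy3) and the series table, which differed from it by at most 5e-10, served as an alternative. The deposited p-value of the log ratio comes from the Feature Extraction error model for 1 spot.

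The main value was log2(processed Cy5/processed Cy3), centred on the median over 85850 autosomal probes. Of the 88737 probes, 12 with outlier flags were left out, none in the windows, and 0 spots were saturated. Sham and TiO2-H arrays were compared by fold within a labelled sex, as in the methods of the study, with no test since each group was 1 array. Where Cy5 was dim on the lower array, its processed signal was raised to the lowest one well above background on that array (430.2 to 837.3 units) and the fold given as a bound, or not given where the direction was lost.

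All probes of the windows are described. As most alike, 3 regions with a symbol were named by Euclidean distance of the 4 medians (at least 3 probes with input well above background), and related genes were named where the median of at least 3 measured probes passed 1.5-fold in the same direction in both comparisons. Symbols were kept for 4332 probes where probe, position and chromosome matched between the printed list, the arrays and RefSeq (GRCm38.p6 names). The members and lists were chosen with earlier results of these data known. Background correction by normexp (offset 50) used limma 3.58.1 in R 4.3.3, and other steps used Python 3.11.15. The counting by fold was tested on simulated data. The alternatives were centring, spread, quantile normalization, normexp, both filters, the deposited ratio and crossed sex labels.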

Additional observations from a re-analysis of the deposited data

Results flagged for a closer look

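Values of 3 probes moved in opposite directions in the 2 comparisons, each by at least 1.5-fold. They were 2 of 9 Sox2 and 1 of 4 Bmp4 probes measured in both comparisons, beside 27.8% of autosomal probes. These differences between the comparisons were not tested, since each group was 1 array. The comparisons differed in labelled sex and in slide, which cannot be told apart. At Sox2 34548677 the log2 fold was -1.58 in males and 0.68 in females. At Sox2 34550254 it was -0.65 in males and 1.60 in females. At 47000105, in a run beside the Bmp4 island, it was -1.11 in males and 1.35 in females. Cy5 was well above background on all 4 arrays at each of these probes. The X-linked input signal went against the sex labels of both TiO2-H arrays. When these arrays were therefore exchanged between the comparisons, the folds in the same order were -1.05 and 0.14, -0.42 and 1.37, and 0.37 and -0.13. With that exchange 0 of the 3 passed 1.5-fold in opposite directions.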

How the results depend on the processing

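With 1 array per group, no library could be left out. No paired analysis was possible because each group held 1 sample. A median counted as moved when it shifted by more than 0.83 on the log2 scale, the robust SD of region medians between the Sham arrays, and a count when it changed by more than 1.5 times. Background correction by normexp gave Bmp4 island medians of -0.75 (male) and -1.22 (female), 6 changed Bmp4 probes in females instead of 11, and 1 changed Sox2 probe in males instead of 7. Over all autosomal probes normexp left 19.0% fallen in males and 43.1% in females, beside 56.0% and 36.3% in the main setting. With Cy5 required above background on both arrays, the Bmp4 medians were -0.13 and -1.22 with 1 probe each and the Sox2 female median was 0.68. That filter left 2 changed Bmp4 probes in each sex and 3 changed Sox2 probes in each sex. Of all autosomal probes that passed it, 58.4% fell and 4.03% rose in males, and 7.21% fell and 53.7% rose in females. Without the filter on the p-value of the log ratio the Bmp4 medians were -0.71 and -1.95. With crossed sex labels the Bmp4 female median was -1.60 and 3 Sox2 probes changed in males. The causes of these shifts were not tested, beyond the fewer probes that the Cy5 filter keeps. Of 64 values under an alternative, 49 stayed within the stated limits. A change of sign was looked for only at medians past 1.5-fold in the main setting, and 0 of these changed sign. The Sox2 female median, which was not past 1.5-fold, went from -0.26 to 0.68 with the Cy5 filter. That of all measured autosomal probes went from -0.10 to 0.64. The pair 47007694 and 47007792, examined in this way after its values were seen, fell in both comparisons under each alternative that measured it, and the Cy5 filter removed it. Its log2 folds ranged from -4.60 to -0.75 in males and -3.52 to -0.90 in females for 47007694, and from -6.57 to -2.78 and -4.48 to -2.30 for 47007792. Dim Cy5 on the TiO2-H arrays limits every fold at a low probe.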
